A study of Mus musculus with 6 samples.

Results

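MHC class II molecules are the surface proteins that show peptides taken up from outside the cell to CD4+ T cells. The set described here holds 9 mouse genes of that machinery. They include the peptide-binding chains H2-Aa, H2-Ab1 and H2-Eb1 and the invariant chain Cd74. The others are the peptide editors H2-DMa and H2-DMb1, their inhibitors H2-Oa and H2-Ob, and the transactivator Ciita. A gene's members on the array were all probe sets (groups of probes for 1 transcript) annotated with that symbol and no other, a rule that uses no measured value, although the 9 genes were picked with earlier results of these data known. By this rule 8 of the 9 genes were measured, by 16 of the 34945 probe sets that carry 1 symbol. H2-DMb1 has no probe set of its own here.

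The arrays were made from lung cells of 4-month-old female mice of a mixed Bl6/129 background, 3 from Bmi1 wild-type animals and 3 from animals labelled Bmi1 mutant, whose genotype field reads Bmi1 null. Bmi1 is a Polycomb protein that helps to keep genes silent. Live cells that stained for neither CD31 nor CD45 were sorted from digested lung, a gate meant to leave out endothelial and blood cells, and their RNA was amplified and hybridised without culture. The labels call the arrays biological replicates and do not say whether an array holds 1 mouse or a pool, so each p measures the spread between these samples. The comparison asks which genes differ between the genotypes.

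Chains that bind peptide are made in the endoplasmic reticulum, where the invariant chain fills their groove and guides them to endosomes. There cathepsins trim the invariant chain, H2-DM exchanges its last fragment for antigenic peptides, and H2-O, known mainly from B cells, restrains H2-DM. Dendritic cells, B cells and macrophages are the classical users, and in lung alveolar type 2 epithelial cells also carry class II molecules. Ciita binds no DNA itself. It is held by the factors RFX, CREB and NF-Y on the X and Y boxes, short elements just upstream of class II genes.

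The labels of cells and genotype were checked first. The signal of Ptprc, which encodes CD45, was 6639, 8507 and 8002 in the wild-type arrays and 5048, 6708 and 5544 in the mutant arrays, so RNA of blood cells was present in both genotypes despite the gate. The groups of Ptprc overlap (log2 difference -0.42, limma adjusted p = 0.369). Endothelial RNA was present as well. Pecam1, which encodes CD31, read 2829, 1907 and 2006 in wild type and 3185, 2691 and 2940 in mutant arrays (difference 0.40, limma adjusted p = 0.427). The endothelial genes Cdh5 and Kdr differed by 0.097 and 0.64 (adjusted p = 0.897 and 0.402), and their groups overlap, as those of Pecam1 do. The direction of Cdh5 turned without wild-type replicate 2 or 3. The Bmi1 signal was not lower in the arrays labelled mutant. One probe set read 996, 980 and 1164 in wild type and 1276, 1498 and 1565 in mutant arrays (two-sided exact permutation p = 0.1, the smallest that 3 against 3 allows), and the other gave p = 0.7 in the same exact test. The labels do not say which part of Bmi1 is missing, so these probe sets may lie outside it, and every direction below rests on the labels.

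The promoters of the members are shown first because the class II genes are known for sharing these elements. The RefSeq promoter table (GRCm38.p6, C57BL/6J) held windows of 300 bases for 6 of the 9 genes. Both strands were searched for the Y box letters CCAAT and for those of the X box (AG, any 2 bases, AC, any base, then GATG), which do not overlap each other in these windows. The stretches below run from 150 to 31 bases before the annotated start, 5′ to 3′ on the gene's strand, and capitals mark the matches (ATTGG is CCAAT on the other strand). They lie at chr17:34305717-34305836 on the plus strand for H2-Eb1, chr17:34092229-34092348 (plus) for H2-Oa, chr17:34153041-34153160 (plus) for H2-DMb1, chr17:34238755-34238874 (plus) for H2-Ob and chr17:34287854-34287973 (minus) for H2-Aa.
H2-Eb1: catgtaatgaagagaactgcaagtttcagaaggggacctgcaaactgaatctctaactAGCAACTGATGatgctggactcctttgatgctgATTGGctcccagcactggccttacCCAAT
H2-Oa: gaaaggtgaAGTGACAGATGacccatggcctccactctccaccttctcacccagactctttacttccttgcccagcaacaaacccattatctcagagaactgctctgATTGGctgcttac
H2-DMb1: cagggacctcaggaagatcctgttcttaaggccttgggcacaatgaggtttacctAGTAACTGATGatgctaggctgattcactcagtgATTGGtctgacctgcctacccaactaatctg
H2-Ob: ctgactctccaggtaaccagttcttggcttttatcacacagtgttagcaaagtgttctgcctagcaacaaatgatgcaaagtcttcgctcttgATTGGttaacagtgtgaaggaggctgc
H2-Aa: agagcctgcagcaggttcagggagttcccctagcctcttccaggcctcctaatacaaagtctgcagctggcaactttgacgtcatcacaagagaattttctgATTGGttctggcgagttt
H2-Eb1, H2-Oa and H2-DMb1 hold both letter patterns, the X box letters upstream of the Y box letters. The spacing is not alike. In H2-Oa they lie 141 to 131 and 43 to 39 bases before the start. The X box letters and the nearest Y box letters lie closer together in H2-Eb1 (92 to 82 and 59 to 55) and H2-DMb1 (95 to 85 and 61 to 57). H2-Ob and H2-Aa hold the Y box letters alone, and so does 1 of the windows of H2-DMa, where they lie farther out, 198 to 194 bases before the start. Over all 32851 promoter windows 37.4% hold the Y box letters, 0.968% the X box letters and 0.387% both. A match is a description of letters, and a window without one says nothing about binding. On chromosome 17 the members lie in the order H2-Oa, H2-DMa, H2-DMb1, H2-Ob, H2-Ab1, H2-Aa and H2-Eb1, with the class I processing genes Psmb9, Tap1, Psmb8 and Tap2 between H2-DMb1 and H2-Ob.

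All 8 measured genes had a lower mean in the mutant arrays, where 49.3% of all genes lay below 0, and the sizes spanned a wide range. H2-Ob fell, with a mean signal 5.55 times lower in the mutant arrays, and was the member that passed the test over all genes. H2-Oa read 3.86 times lower, H2-DMa 2.07 times and H2-Eb1 1.98 times, and H2-Ab1, Cd74 and H2-Aa between 1.603 and 1.36 times lower, none of which passed. Differences below are mutant minus wild type on the scale of log2(signal + 16), with limma's standard error (SE) and a p adjusted by Benjamini-Hochberg over 18193 genes. Genes with an adjusted p below 0.05 count as called. In that test 0.511% of genes were called lower and 0.412% higher, and of the 8 members 1 was called lower. In all 93 genes were called lower and 75 higher, a split that became 88 and 120 when each array was centred on its median. In 6 of the 8 members every mutant array lay below every wild-type array, which held for 10.0% of all genes. The members' median log2 difference was -0.87, against 0.0059 over all genes. No member was called higher in limma, and 0 had an unadjusted p under 0.05 with a higher mean, while 5 had one with a lower mean, against 7.04% of all genes. In bulk RNA, fewer cells of a type and less RNA per cell cannot be told apart.

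**Figure D1:**
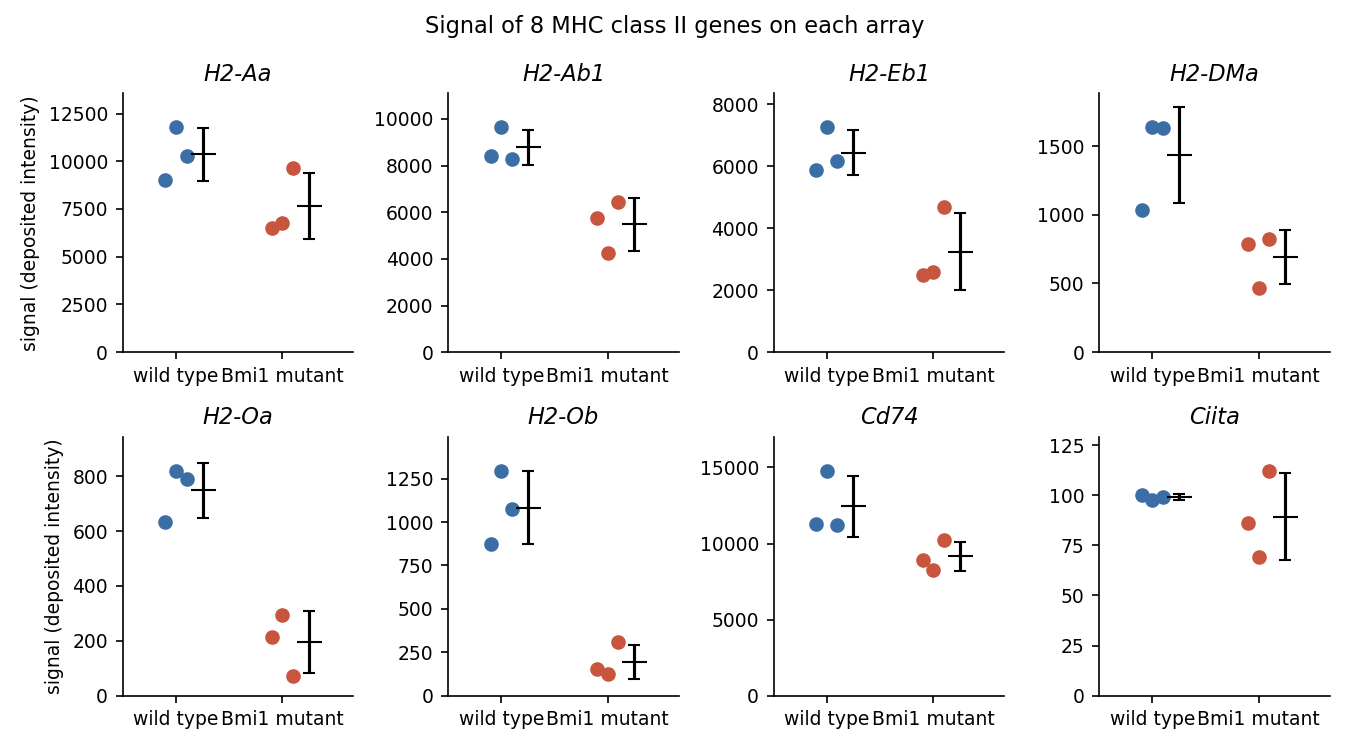
Deposited signal (linear intensity, axes from 0) of the 8 measured MHC class II genes on each of the 3 wild-type (blue) and 3 Bmi1 mutant (red) arrays, with the mean and SD of each genotype in black. The genotypes overlap for H2-Aa and Ciita and lie apart for the other 6 genes, with the widest relative gap in H2-Ob.

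The peptide-binding chains were bright in every array. H2-Aa, the alpha chain of I-A, read 9022, 11781 and 10301 in wild type and 6501, 6781 and 9624 in the mutant arrays. Mutant replicate 3 lay above wild-type replicate 1, so the groups overlap, and the log2 difference was -0.46 ± 0.21 (SE, n = 3 each, limma adjusted p = 0.394). H2-Ab1, the beta chain of I-A, read 8416, 9640 and 8293 in wild type and 5738, 4250 and 6451 in the mutant arrays. These groups do not overlap, with a difference of -0.70 ± 0.20 (limma adjusted p = 0.189). H2-Eb1, the beta chain of I-E, read 5887, 7264 and 6187 against 2479, 2591 and 4678. Mutant replicate 3 was again the highest of the mutant arrays and still lay below all wild-type arrays, with a difference of -1.04 ± 0.27 (limma adjusted p = 0.153).

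The partner of H2-Eb1 in I-E, H2-Ea, is annotated as a transcribed pseudogene in RefSeq's C57BL/6J assembly. The brightest of its 3 probe sets read 20.7 ± 14.3 in wild type and 18.9 ± 27.1 in mutant arrays (SD, n = 3 each), a dim signal in both genotypes. The RNA of H2-Eb1 thus does not show that I-E was at the surface, and protein was not measured.

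Cd74 encodes the invariant chain, the chaperone of all class II chains. Its signal was 11315, 14783 and 11203 in wild type and 8944, 8290 and 10208 in mutant arrays. The mutant arrays lay just below the wild-type ones, with a difference of -0.44 ± 0.19 (SE, n = 3 each, limma adjusted p = 0.349).

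H2-DMa, of the peptide editor H2-DM, had a mean difference like that of H2-Eb1, and those of the inhibitor genes H2-Oa and H2-Ob were larger. H2-DMb2, a further H2-DM gene described below, differed by -2.05, close to H2-Oa. H2-DMa, the alpha chain of H2-DM, read 1035, 1638 and 1633 in wild type and 784, 469 and 827 in mutant arrays, without overlap (difference -1.04 ± 0.29, limma adjusted p = 0.174). The probe sets annotated with both H2-DMb1 and its near-identical neighbour H2-DMb2 entered no test. They read 832 ± 124 and 1167 ± 205 in wild type and 480 ± 162 and 529 ± 160 in mutant arrays (SD, n = 3 each), and which of the pair gave that signal cannot be told apart.

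H2-Oa, the alpha chain of H2-O, read 634, 820 and 792 in wild type and 216, 295 and 71.7 in the mutant arrays. All mutant arrays were far below the wild-type arrays but far from each other, with mutant replicate 3 the lowest. The difference was -2.04 ± 0.45 (SE, n = 3 each), and the wide spread left an adjusted p of 0.106 in limma. H2-Ob, the beta chain of H2-O, read 874, 1295 and 1076 in wild type and 152, 127 and 306 in the mutant arrays. Here mutant replicate 3 was the highest of the mutant arrays, and the groups were widely apart (difference -2.46 ± 0.33, limma adjusted p = 0.0307). The call of H2-Ob rested on the full set of arrays. The adjusted p was 0.0622, 0.134 and 0.127 without wild-type replicates 1, 2 and 3, and 0.120 and 0.0852 without mutant replicates 1 and 2. It was 0.0244 without mutant replicate 3. The difference lay between -2.81 and -2.22 in these 6 fits. A further probe set, annotated with both H2-Ob and Gm20506, entered no test and read 299 ± 35.4 in wild type and 71.1 ± 8.89 in mutant arrays (SD, n = 3 each).

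Ciita, the transactivator on which class II expression is known to depend, was dim. Its brightest probe set read 100.3, 97.5 and 99.2 in wild type and 86.1, 69.2 and 112 in mutant arrays. The mutant arrays lay on both sides of the wild-type arrays, and the difference was -0.15 ± 0.19 (SE, n = 3 each, limma adjusted p = 0.792). All 3 Ciita probe sets had a mean signal below 100, a level below which about 47.7% to 50.3% of all probe sets lay on each array, so a difference in Ciita was not measurable with confidence at this signal.

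Probe sets of the same gene gave the same direction but not the same size. All 16 lay below 0, and 10 had every mutant array below every wild-type array, against 10.7% of all probe sets with 1 symbol. In a fit over those probe sets limma called 0.258% lower, and among the 16 it called the probe set of H2-Ob (adjusted p = 0.0400). For H2-Ab1, the 3 probe sets differed by -0.70, -1.003 and -1.25, the brightest the least. For H2-Aa, the 3 bright probe sets differed by -0.46, -0.61 and -0.80, again with the least difference in the brightest, and a dim one by -0.24. The probe sets of H2-DMa differed by -1.04 and -1.14. The bright probe sets of H2-Aa and most of H2-Ab1 have names ending in _x_at or _s_at, the maker's marks for probes that can match more than 1 transcript, so signal from a related gene may enter them.

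**Figure D2:**
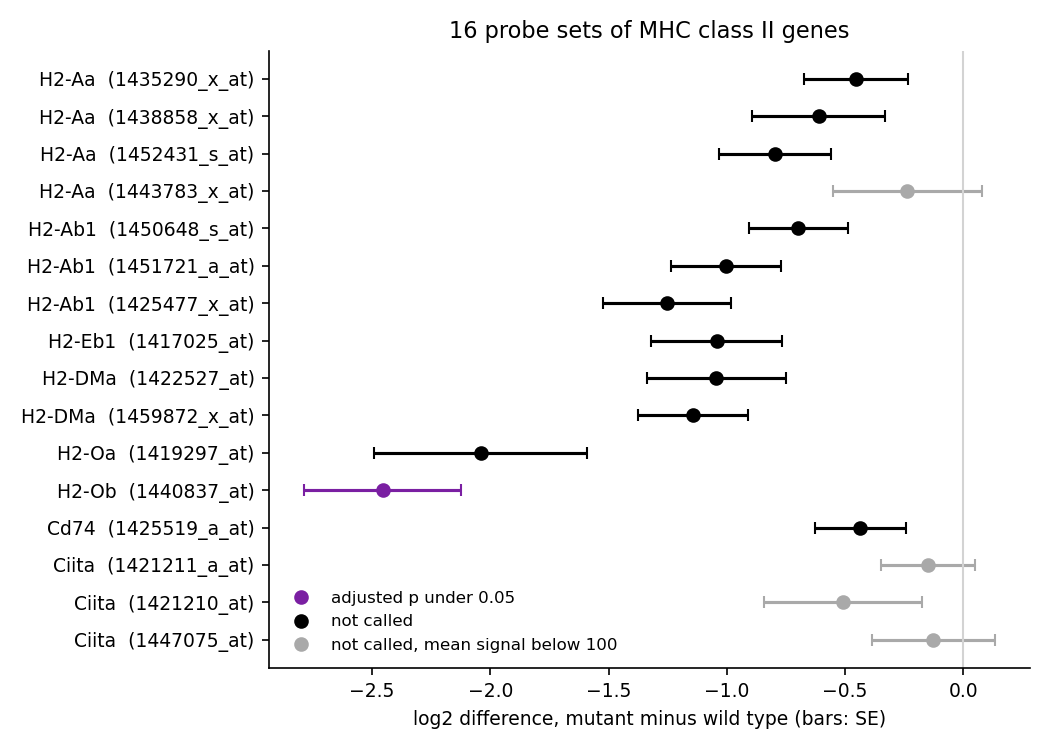
Log2 difference (mutant minus wild type, x axis) with limma's SE as bars for each of the 16 probe sets of the members, listed by gene and probe set. All points lie left of 0, from -2.46 for H2-Ob to -0.13 for the dimmest Ciita probe set, and the H2-Ob point alone passed the test.

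The gaps between members within each array were compared next, with the brightest probe set of each gene. For H2-Aa that probe set had the least difference of its bright ones (-0.46, against -0.61 and -0.80). The same held for H2-Ab1, so the size of gaps to these genes depends on the probe set. The difference of H2-Ob was lower than that of H2-Aa by -2.00 ± 0.20 (SE over arrays), of Cd74 by -2.02 ± 0.29 and of H2-Eb1 by -1.41 ± 0.13. H2-Eb1 itself differed from H2-Aa by -0.59 ± 0.12. Each of these 4 gaps had a two-sided exact permutation p of 0.1, the smallest the design allows, and an adjusted p of 0.165 over the 28 pairs of members. That smallest p was shared by 17 of the 28 pairs. The difference of H2-Oa was lower than that of H2-DMa by -0.996 ± 0.77 and of H2-Eb1 by -0.998 ± 0.84. Their exact permutation p was 0.4 and 0.3, so a larger difference in H2-Oa than in these 2 genes was not resolved. H2-Aa and Cd74 differed from each other by -0.020 ± 0.13 (exact permutation p = 1), and H2-Oa and H2-Ob by 0.42 ± 0.91 (exact permutation p = 0.7), where the spread would hide a wide gap.

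Single arrays ranked alike across most members. Mutant replicate 3 was the highest mutant array in 7 of 8 members, the exception being H2-Oa, where it was the lowest. Wild-type replicate 2 was the highest wild-type array in 7 of 8. Relative to the wild-type mean, the mean of H2-Aa, H2-Ab1 and H2-Eb1 stood at -0.88, -0.98 and -0.33 in mutant replicates 1 to 3 on the log2 scale, and the mean of H2-Oa and H2-Ob at -2.20, -2.11 and -2.43. In each mutant array the mean of H2-Oa and H2-Ob lay further below wild type than the mean of H2-Aa, H2-Ab1 and H2-Eb1. In mutant replicate 3 the inhibitor chains disagreed: H2-Oa stood at -3.12, from a dim signal of 71.7, and H2-Ob at -1.75. Single genes did not all follow that order: in mutant replicate 2, H2-Oa stood at -1.29 and H2-Eb1 at -1.30.

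**Figure D3:**
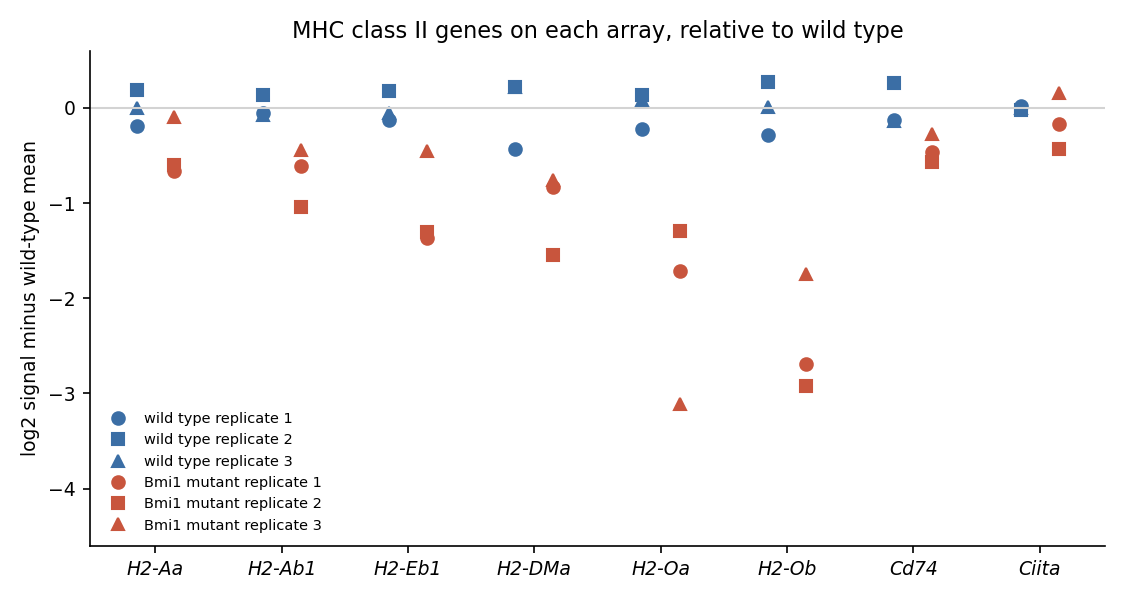
Log2(signal + 16) of each member on each array minus that gene's wild-type mean (y axis), wild type in blue and Bmi1 mutant in red, with 1 symbol shape per replicate number. Mutant replicate 3 (red triangles) lies nearest to wild type in H2-Aa, H2-Eb1 and Cd74 and farthest in H2-Oa.

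Other class II genes were read from a list that also holds genes of class II turnover. Of its 6 measured genes 0 were called in limma, 4 had an unadjusted p under 0.05 with a lower mean and 0 with a higher one, and the median was -0.88. H2-DMb2, which encodes an alternative beta chain of H2-DM, read 3572, 4170 and 3462 in wild type and 1053, 474 and 1393 in mutant arrays (difference -2.05, limma adjusted p = 0.0704). H2-Eb2 read 154 ± 57.4 against 44.8 ± 9.23 (SD, n = 3 each, difference -1.43, limma adjusted p = 0.0837). Neither pair of groups overlapped. Wdfy4, a gene of antigen cross-presentation in dendritic cells, differed by -1.29 (adjusted p = 0.161), and Marchf1, a ubiquitin ligase that removes class II molecules from the surface, by -0.47 (adjusted p = 0.343).

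Among 15 measured factors that act on class II promoters or on Ciita, 3 fell and 0 rose, and the list median was -0.093. Irf8, a regulator of dendritic cells and macrophages, fell from 3214 ± 399 to 1063 ± 221 (SD, n = 3 each, difference -1.60, limma adjusted p = 0.0303). Irf4 fell by 1.29 (adjusted p = 0.0442), and Pax5, which sets B cell identity, fell from a signal of 236 ± 87.3 to 14.8 ± 12.2 (adjusted p = 0.0249). That mutant level lies below the offset of 16, so the size of the Pax5 difference depends on it. It was -3.04 here, -1.90 when 64 was added in place of 16, and -4.16 when 1 was added, where the call was lost (adjusted p = 0.101). Irf4 and Irf8 also stand in the dendritic cell list and Pax5 in the B cell list used below. The factors that sit on the X and Y boxes in all cell types were not called: Nfya differed by -0.82 (adjusted p = 0.130), Rfx5 by -0.093 (adjusted p = 0.916), Rfxap by -0.084 (adjusted p = 0.890) and Creb1 by -0.012 (adjusted p = 0.990). The mutant arrays of Nfya all lay below the wild-type arrays, and Nfya was called with a trended, robust prior (limma adjusted p = 0.0423). Nfyb differed by -0.15 and Nfyc by 0.18 (adjusted p = 0.747 and 0.679). Rfxank, dim in the mutant arrays at 94.8 ± 29.3 (SD, n = 3), differed by -0.23 (adjusted p = 0.765). Apart from Nfya, these factors were named after their values were seen.

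Interferon gamma is the main known inducer of Ciita outside professional antigen presenting cells. Ifng fell from 1520 ± 284 to 398 ± 70.7 (SD, n = 3 each, difference -1.89, limma adjusted p = 0.0225). It was the 1 called of 9 measured genes of its axis, whose median was -0.15. The kinase gene Jak1 differed by -0.37 (adjusted p = 0.360), the receptor gene Ifngr2 by 0.32 (adjusted p = 0.612), and the interferon-induced GTPase gene Gbp2 lay the other way, at 0.46 (adjusted p = 0.290).

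Endosomal processing genes lay mostly above 0. Of 12 measured, 9 lay above 0, with a median of 0.13, and 0 were called in limma, with 2 higher and 1 lower at an unadjusted p under 0.05. The proteases Lgmn and Ctsl differed by 0.82 (adjusted p = 0.0733) and 0.61 (adjusted p = 0.178), the thiol reductase Ifi30 by -0.38 (adjusted p = 0.328) and the protease Ctsd by 0.26 (adjusted p = 0.600). Ctss, the protease known for the last trimming of the invariant chain and named after its values were seen, read 14547 ± 253 and 14772 ± 934.

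MHC class I presentation, which serves all nucleated cells, had 0 of 16 measured genes called in limma, 1 with an unadjusted p under 0.05 and a median of -0.14. That gene was Nlrc5, the class I transactivator and a relative of Ciita (difference -0.70, adjusted p = 0.247). The immunoproteasome gene Psmb8 differed by -0.37 (adjusted p = 0.418), Tapbpl by -0.48 (adjusted p = 0.428) and Pdia3 by -0.29 (adjusted p = 0.457). Psmb9, Tap1 and Tap2, which lie among the class II genes on chromosome 17 and were named after their values were seen, differed by -0.33, 0.11 and -0.017 (adjusted p = 0.473, 0.869 and 0.979).

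Markers of cells that carry class II molecules were described by list, with counts of calls, the median difference and the mean log2 signal on each array. The lists were chosen with earlier results of these data known. B cell markers were lower in the mutant arrays, with 10 of 14 called lower and 0 higher, a median of -1.86 and a mean log2 signal of 8.73 to 9.06 in wild type and 6.79 to 7.17 in mutant arrays. Ms4a1 fell by 3.40 (limma adjusted p = 0.00314), Bank1 fell by 2.34 (adjusted p = 0.00995), Cd79b fell by 1.96 (adjusted p = 0.0111) and Blk fell by 1.76 (adjusted p = 0.0220). Of 13 dendritic cell markers 6 fell and 0 rose, with a median of -1.33 and means of 9.14 to 9.23 against 7.91 to 8.04. Cd209a fell by 2.73 (adjusted p = 0.00995), Ccr7 fell by 1.49 (adjusted p = 0.0269) and Siglech fell by 1.79 (adjusted p = 0.0361).

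Macrophage and monocyte markers lay on both sides of 0. Of 15, 1 fell, Siglecf of alveolar macrophages, by 2.19 (adjusted p = 0.0354), and the median was 0.0065, with means of 11.1 to 11.4 and 11.0 to 11.4. Mertk differed by -0.76 (adjusted p = 0.0952), Itgam by 1.06 (adjusted p = 0.229) and Cd14 by 0.49 (adjusted p = 0.531). Alveolar type 2 markers, such as Sftpb at 0.34 (adjusted p = 0.349), Napsa at 0.37 (adjusted p = 0.386), Sftpd at 0.28 (adjusted p = 0.439) and Etv5 at 0.24 (adjusted p = 0.627), had a median of 0.19 over 9 genes and 0 called in limma, with 0 at an unadjusted p under 0.05. All 9 lay above 0, as did 9232 of all 18193 genes. In 5 of the 9 every mutant array lay above every wild-type array, which held for 1899 of all genes. Their means were 13.04 to 13.27 in wild type and 13.34 to 13.37 in mutant arrays, without overlap.

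Some markers of cells that are not known for class II in the mouse were called as well. Of 12 natural killer and T cell markers 5 fell (median -1.55), of 8 neutrophil markers 3 rose (median 1.60), and of 10 fibroblast markers 1 rose, Col1a1 (median 0.67). Eomes differed by -2.98, Gzma by -2.48 and Cd2 by -1.54 (adjusted p = 0.01004, 0.0404 and 0.0404). For Ncr1 the mean signal was 334 ± 109 in wild type against 20.7 ± 9.48 in mutant arrays (SD, n = 3 each, limma adjusted p = 0.0116). Its difference was -3.23, or -2.20 after adding 64, or -3.99 after adding 1, where the call was lost (adjusted p = 0.0538). The neutrophil gene Stfa3 was dim in wild type, at 13.5 ± 3.90, and read 3494, 4695 and 938 in the mutant arrays (limma adjusted p = 0.01004). Its difference was 6.42 here, 5.05 after adding 64 and 7.46 after adding 1. Mmp8 rose by 1.70 and Stfa2l1 by 4.57 (adjusted p = 0.0243 and 0.0442), the latter without its call at an offset of 1 (adjusted p = 0.107).

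Part of the markers were dim in the mutant arrays, with a mean signal below 100: 6 of 14 B cell markers, 5 of 13 dendritic cell markers and 2 of 12 natural killer and T cell markers, against 0, 2 and 0 in wild type. Ms4a1 read 123 ± 17.3 in the mutant arrays and Cd209a 95.3 ± 27.2 (SD, n = 3 each). The mutant arrays did not rank alike over these lists. In replicates 1 to 3 the mean log2 signal was 7.17, 7.13 and 6.79 for B cells, 7.91, 8.04 and 8.03 for dendritic cells, and 8.54, 8.64 and 8.76 for natural killer and T cells. Replicate 3, the highest mutant array in most members, was thus the lowest in the B cell list, between the others in the dendritic cell list and the highest in the natural killer and T cell list. In the same order the means were 11.24, 11.87 and 10.32 for neutrophils, with replicate 3 the lowest. They were 10.96, 11.36 and 11.07 for macrophages and monocytes, with replicate 3 between the others. The part of these cell types in the members' differences was not tested.

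**Figure D4:**
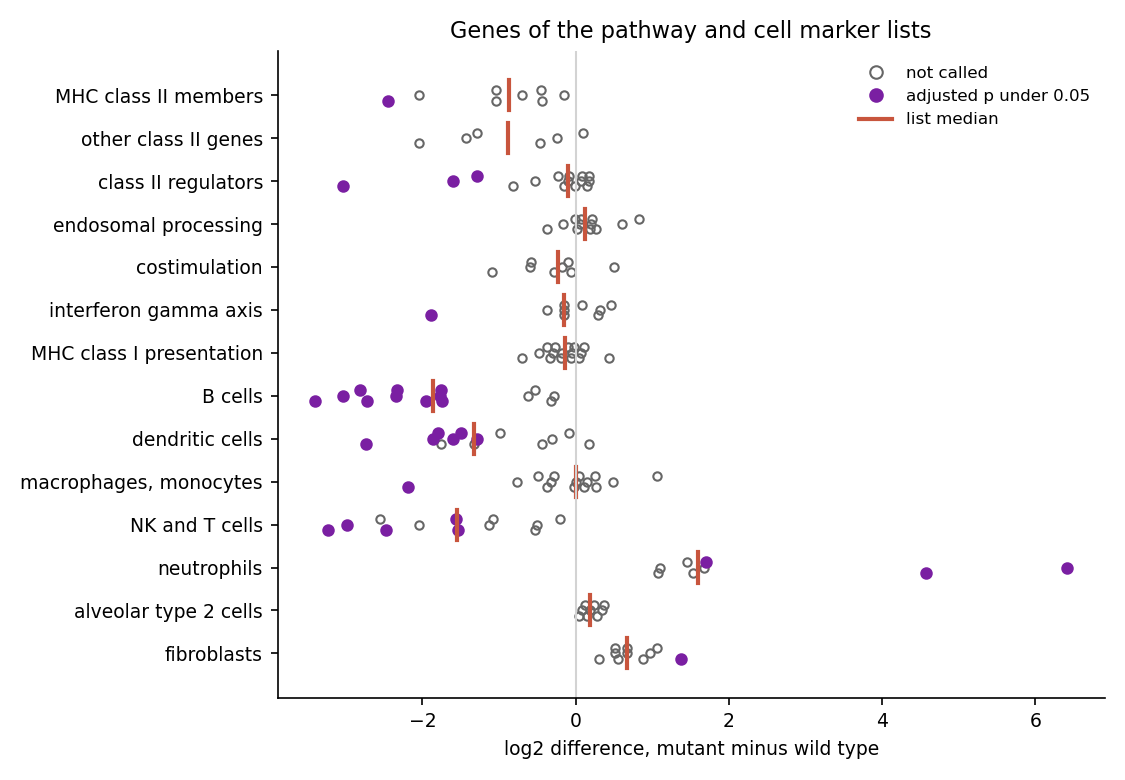
Log2 difference (mutant minus wild type, x axis) of every measured gene of the members and of 13 other lists, with called genes (limma adjusted p under 0.05) filled and the median of each list as a red bar. The members, with a median of -0.87, lie right of the lists of B cells (-1.86), natural killer and T cells (-1.55) and dendritic cells (-1.33). They lie left of those of class I presentation (-0.14) and endosomal processing (0.13), which are near 0.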

How the data were processed

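RNA of 6 arrays (Affymetrix Mouse Genome 430 2.0) was read from the series' value table. The deposited values are linear probe-set intensities. Per the submitters' processing notes, the authors used Affymetrix Expression Console 1.1. How probes were summarized, how background was removed and which probe sets were detected is not given in the sources used here. The 2% trimmed mean of each array lies between 500.0023 and 500.0025, so arrays had been scaled to 1 mean, which hides any shift of all genes together. The number of arrays limits the precision.

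Intensities were turned to log2(signal + 16) without further scaling. Of 45101 probe sets 64 controls, 932 with several symbols and 9160 with none were left out. The brightest probe set stood for each of 18193 genes. Genotypes were compared with limma 3.58.1 (R 4.3.3, lmFit and eBayes, no covariate, prior of 2.93 degrees of freedom). The code was run on normal data simulated from limma's own fitted variances, which does not show how the test behaves on these arrays. Pairs of members and Bmi1 were compared with two-sided exact permutation tests.

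Named genes are the members, Bmi1, Ptprc, H2-Ea, H2-Eb2, up to 4 genes of smallest p per list and the 8 genes nearest to the class II pattern; others are marked. The members and lists were chosen with earlier results of these data known. Alternatives were other scalings, offsets, filters, probe-set rules, variance priors, array weights, the replicate block, thresholds and leaving out each array. Promoters came from RefSeq (GRCm38.p6), whose build was used for no measurement. Sequence of Cd74 is not reported here. Figures were drawn with matplotlib 3.10.9.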

Additional observations from a re-analysis of the deposited data

How the results depend on the processing

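All 8 measured members kept a lower mean in the mutant arrays in each of the 16 refits (15 for Ciita, which a filter on dim genes removes). The number called lower was 1, and became 0 with an offset of 1, at an adjusted p under 0.01 and with the replicate block, 2 among genes above the median level (H2-Oa and H2-Ob) and 4 with a trended, robust prior (these plus H2-Ab1 and H2-Eb1). Without single arrays it was 0 to 1. With the offset of 1 and with the block, 5 members still had an unadjusted limma p under 0.05. For H2-Ob the adjusted p ranged from 0.00423 to 0.134, and it was called in 9 of the 16. The members' median was between -1.01 and -0.66 without single arrays, the latter without mutant replicate 2. Over all genes, those called lower were 21 with an offset of 1, 145 with an offset of 64, 151 above the median level, 225 with the trended prior, 0 with the replicate block and 1 to 41 without single arrays. Those called higher were 12, 120, 133, 213, 0 and 1 to 35 in the same order, and 120 with median centring, which moved the median of all genes from 0.0059 to 0.10. With the block 2611 genes had an unadjusted limma p under 0.05. Deviations of same-numbered arrays from their genotype mean correlated at 0.073, 0.048 and 0.032 over all genes. The labels do not say whether the numbers pair the samples. A correlation over all genes could miss a pairing that touches few of them, so pairing remains unknown. The causes of these moves were not tested. The list of class II regulators turned to a median of 0.0017 with median centring. The median of the interferon gamma axis ran from -0.19 to 0.097 without single arrays. Uncalled genes that turned were H2-Ea (0.0057 with the mean of probe sets, -0.84 to 0.13 without single arrays), Napsa (-0.11 with the most variable probe set) and Cdh5, an endothelial gene (-0.026 with the mean of probe sets, -0.15 with the most variable one, -0.037 to 0.33 without single arrays). All 20 called genes outside the members kept their direction. Each lost its call in at least 1 refit, which had to be so because 0 genes were called with the replicate block. Another 8 named genes outside the members, not called in the main fit, gained a call in at least 1 refit. H2-DMb2, Nfya, Lgmn and Ctsl are among them. Of the named genes 13 had a mean signal below 100 in at least 1 genotype, which limits the size of their differences: the uncalled Ciita, H2-Ea, H2-Eb2, Tnfsf4, Pdcd1lg2 and Itgam and the 7 called genes Pax5, Bank1, Cd209a, Siglech, Eomes, Ncr1 and Stfa3.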

Other observations

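Costimulatory genes, whose proteins give T cells the signal that accompanies class II, were not called in limma. Of 8 measured genes 7 lay below 0, with a median of -0.23, and 2 had an unadjusted p under 0.05 with a lower mean. Cd83, which protects class II molecules from removal at the surface of dendritic cells, read 6710 ± 1505 in wild type and 4420 ± 390.5 in mutant arrays (SD, n = 3 each, difference -0.58, adjusted p = 0.274). Pdcd1lg2 differed by -1.09 (adjusted p = 0.204), Cd86 by -0.60 (adjusted p = 0.385) and Tnfsf4 by 0.50 (adjusted p = 0.457).

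The genes whose pattern over the 6 arrays was most like the mean of H2-Aa, H2-Ab1, H2-Eb1 and Cd74 were, out of 4544 bright genes compared, Vamp4, Mtss1, Arap2, Hebp1, Ptger4, Mien1, Leprotl1 and Parp1. Likeness was the root mean square difference of centred log2 values, which was 0.11 for Vamp4, 0.12 for Parp1 and 0.42 for the median gene. The members of the core themselves lay at 0.11 (H2-Ab1) to 0.23 (H2-Eb1). Vamp4 read 1730 ± 181 in wild type and 1206 ± 294 in mutant arrays, and Ptger4, a prostaglandin E2 receptor gene, 2143 ± 448 and 1198 ± 225 (SD, n = 3 each). None of the 8 was called in limma, and their log2 differences ran from -0.83 to -0.47. The 8 were chosen by nearness to the core on these same arrays, so their direction and rough size follow from that choice.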
